A study of Mus musculus with 4 samples.

Results

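Plasmacytoid dendritic cells (pDCs) made up 478 of the 28429 CD45+ cells analysed from EO771 mammary tumors. Members were chosen by their unique molecular identifiers (UMIs, the tags that count single RNA molecules). A pDC had at least 2 Siglech UMIs and at least 1 UMI of Ccr9 and Cox6a2 together, no UMI of Cd3d, Cd3e or Cd3g, under 300 UMIs of S100a8 and S100a9 per 10000 UMIs of the cell, and under 20 of the 3 C1q chains per 10000. The study sorted viable CD45+ cells from orthotopic EO771 tumors grown to 1.5 cm3 in female mice, 2 Csf1rfl/fl and 2 Lyve1CreCsf1rfl/fl, and sequenced the 3′ ends of their RNA on the 10X Chromium platform. EO771 is a mouse mammary carcinoma line of the C57BL/6 strain. Both Chromium runs pooled 1 tumor of each genotype, and hashtag antibodies marked the tumor of origin. The comparison asks what changes among tumor leukocytes when LYVE-1+ macrophages lose Csf1r, the receptor for colony-stimulating factor 1.

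All 4 mice carried the floxed Csf1r alleles, and the genotypes differed in Cre recombinase driven by Lyve1. The lines were C57BL/6 and crossed in house. Such a Cre can also act in lymphatic endothelium and in any other cell that has expressed Lyve1, and deletion was not measured in single cells here. The labels give no age of the mice. The study counted 2 tumors per genotype, and whether the mice shared a litter was not given in the sources used here. Lyve1 had 0 UMIs in the pDCs of every tumor. Csf1r stood at 0.335 and 0.105 UMIs per 10000 in pDCs of Csf1rfl/fl and at 0.168 and 0.0486 in those of Lyve1CreCsf1rfl/fl, from 2 to 41 UMIs a tumor. The levels overlapped. In the Lyve1CreCsf1rfl/fl tumor of run 1, 4 of the 5 Csf1r UMIs lay in 1 cell of 16529 UMIs, so the overlap rests on that cell. Reads of 3′ ends cannot show the loss of a floxed exon.

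pDCs are bone marrow derived cells that circulate, sense viral and self nucleic acids in endosomes through the receptors TLR7 and TLR9, and can release type I interferon in large amounts. Their identity depends on the E protein TCF4, also called E2-2, with BCL11A, SPIB, RUNX2 and IRF8, and they carry features of the lymphoid lineage such as rearranged or germline immunoglobulin transcripts. In tumors they have been described both as interferon producers and as tolerogenic cells that display few costimulatory molecules.

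The sequences upstream of 3 marker genes are shown because E proteins such as TCF4, whose gene marks these cells, bind the E-box. Siglech (sialic acid-binding lectin H) lies on the plus strand of mm10 chromosome 7 from 55768178 to 55778925, Ccr9 (receptor for the chemokine CCL25) on the plus strand of chromosome 9 from 123678439 to 123784330, and Klk1 (tissue kallikrein) on the plus strand of chromosome 7 from 44225360 to 44229618, as annotated in GENCODE vM21. The 250 bases before the RefSeq transcription starts (GRCm38.p6) follow, 5′ to 3′ on the strand of the gene, with each CAGGTG, or CACCTG on the other strand, in capitals. The windows are chr7:55767934-55768183 for Siglech, chr9:123766961-123767210 for Ccr9 and chr7:44225110-44225359 for Klk1.
Siglech: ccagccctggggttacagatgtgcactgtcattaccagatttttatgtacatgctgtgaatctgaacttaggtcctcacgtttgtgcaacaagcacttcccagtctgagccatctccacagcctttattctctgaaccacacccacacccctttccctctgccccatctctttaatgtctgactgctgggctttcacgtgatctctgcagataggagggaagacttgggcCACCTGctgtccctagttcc
Ccr9: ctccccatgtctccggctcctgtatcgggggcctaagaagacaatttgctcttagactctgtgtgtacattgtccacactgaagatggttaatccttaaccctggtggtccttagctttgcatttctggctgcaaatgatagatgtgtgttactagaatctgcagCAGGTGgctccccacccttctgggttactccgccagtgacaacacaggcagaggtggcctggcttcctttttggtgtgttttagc
Klk1: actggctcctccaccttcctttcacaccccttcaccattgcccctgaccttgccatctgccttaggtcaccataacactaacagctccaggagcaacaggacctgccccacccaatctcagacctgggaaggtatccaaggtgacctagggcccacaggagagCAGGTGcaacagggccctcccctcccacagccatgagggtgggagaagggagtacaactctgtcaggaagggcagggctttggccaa
Of the 20 genes with the highest ratio described further on, 13 had a RefSeq promoter, with 15 windows in all. CAGGTG or CAGCTG, searched on both strands, was in 9 of these 15 windows and in 27.7% of all 32851 promoter windows of the same length. Both are forms of the general E-box CANNTG, which was in 13 of the 15 windows and in 66.2% of all windows. The PU box GAGGAAGT was in none of the 15 windows and in 2.44% of all, and the ETS-IRF composite element, searched by its consensus, was in none of the 15 and in 2.3% of all. A match describes the letters and does not show binding.

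Of the pDCs, the Csf1rfl/fl tumors gave 270 in run 1 and 71 in run 2, while the Lyve1CreCsf1rfl/fl tumors gave 64 and 73. Their median depth was 3970 and 4851 UMIs in the Csf1rfl/fl tumors and 4275.5 and 5048 in the Lyve1CreCsf1rfl/fl tumors, and their summed UMIs ranged from 298105 to 1222671 a tumor. No barcode was shared by pDCs of both runs, whereas 60 of all kept barcodes were. Scrublet, which scores simulated doublets, called 35, 10, 6 and 7 pDCs in the same order of tumors, at an expected rate set to 0.2. These were 13.0%, 14.1%, 9.38% and 9.59% of pDCs, beside 25.45%, 12.51%, 16.3% and 13.2% of all kept cells. The winning hashtag exceeded its rival less than 3-fold in 12 pDCs of the Csf1rfl/fl tumor of run 1 and in 0 of the other tumors. Members had a median of 9 Siglech UMIs (2 to 28) and of 15 UMIs of Ccr9 and Cox6a2 (1 to 79). At the edge of the rule, the 16 members with exactly 2 Siglech UMIs held 14.4 Tcf4 and 31.5 Ly6d UMIs per 10000, and the 23 cells outside with 1 Siglech UMI held 10.1 and 6.52. The 14 members with exactly 1 UMI of Ccr9 and Cox6a2 held 8.36 Klk1 and 17.2 Ly6d UMIs per 10000. The 18 cells outside with 0 such UMIs held 0 and 4.58. Tcf4 and Bst2 were close at this edge, with 13.1 and 24.5 inside and 11.2 and 21.4 outside. Median depth was 4739 UMIs inside and 6047 outside. Some cells outside the rule thus resemble members in part of the markers.

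Levels are UMIs of a gene per 10000 UMIs of all cells of a class in a tumor, and 3′ counts compare 1 gene between classes rather than different genes. For contrast, 3 other dendritic cell classes were defined by their own UMIs: 243 cells with Xcr1 or Clec9a, markers of type 1 conventional dendritic cells, 1229 with Ccr7 and Fscn1, markers of mature dendritic cells, and 247 with at least 2 Cd209a and 10 H2-Ab1 UMIs. Median depth was 3970 to 5048 UMIs in pDCs, 11006 to 14382 in Xcr1 or Clec9a cells, 4644 to 5208 in Ccr7 Fscn1 cells and 6420 to 7531 in Cd209a cells. Differences between classes are descriptions with no test, since cells were sorted into classes by their expression. Of 9629 genes with at least 50 UMIs over the 4 classes, 15.6% were higher in pDCs than in each other dendritic class in every tumor, and 3.95% were lower in every tumor.

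The 6 markers of the label were all present. Siglech, used by the rule, stood at 18.9 and 21.4 UMIs per 10000 in the pDCs of the Csf1rfl/fl tumors and at 17.9 and 20.9 in those of the Lyve1CreCsf1rfl/fl tumors. Ccr9, also used, stood at 11.6 and 16.6 in Csf1rfl/fl and at 13.3 and 15.7 in Lyve1CreCsf1rfl/fl. Cox6a2, a subunit of cytochrome c oxidase best known from heart and skeletal muscle and also used by the rule, stood at 22.9 and 19.7 in Csf1rfl/fl and at 23.7 and 16.1 in Lyve1CreCsf1rfl/fl. The levels of the genotypes overlapped for all 3 genes, and the run 2 tumors had more Siglech and Ccr9 and less Cox6a2 than the run 1 tumors of the same genotype. The rule did not use the next 3 markers. Klk1 stood at 11.6 and 7.85 in Csf1rfl/fl and at 12.01 and 12.2 in Lyve1CreCsf1rfl/fl. Tcf4, the defining factor, stood at 15.1 and 17.8 in Csf1rfl/fl and at 15.3 and 19.6 in Lyve1CreCsf1rfl/fl. Ly6d, a surface protein shared with early B lineage progenitors, stood at 26.6 and 15.5 in Csf1rfl/fl and at 25.5 and 19.5 in Lyve1CreCsf1rfl/fl. In the other 3 dendritic classes the mean level of Klk1 was at most 0.00833 and of Ly6d at most 0.0959, and that of Tcf4 was 0.382 in Xcr1 or Clec9a cells, 1.33 in Ccr7 Fscn1 cells and 1.98 in Cd209a cells.

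**Figure D1:**
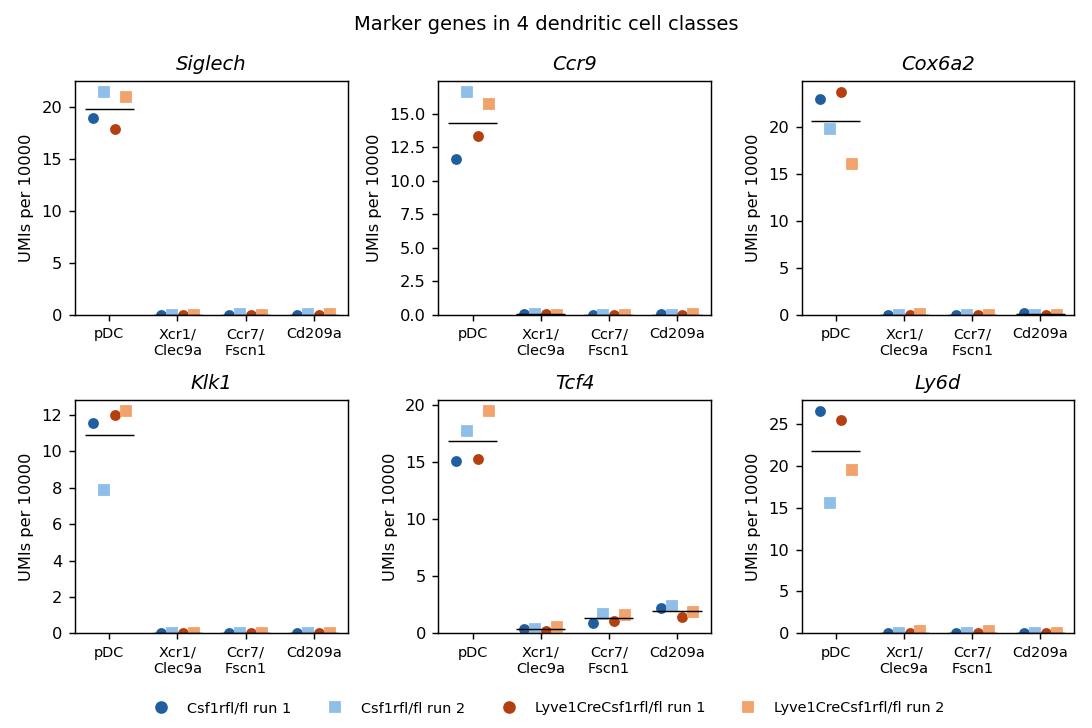
Levels of 6 marker genes (UMIs per 10000 UMIs, linear axes) in pDCs and 3 other dendritic cell classes, with 1 point per tumor and a line at the mean of 4 tumors. All 4 pDC points of Tcf4 lie between 15.1 and 19.6, above the other classes, whose means reach 1.98.

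Markers of other cell types were examined by list, and the rule itself capped or excluded some of them. The 8 neutrophil markers summed to 11.3, 14.4, 17.2 and 2.38 UMIs per 10000 in the same order of tumors. Their mean sum in neutrophils was 1444. Of their 2542 UMIs in pDCs, S100a8 and S100a9, which the rule capped, gave 986 and 1185. Over the cap of 300 per 10000 lay 28, 6, 6 and 0 kept cells that met the terms for Siglech, Ccr9 and Cox6a2. The part of the cap in the low sum was not tested. The 9 macrophage markers summed to between 5.11 and 10.03, with Lyz2 giving 887 of their 1665 UMIs, and C1qa, C1qb and C1qc, which the rule capped, had 51 UMIs in all pDCs. Of the 7 T cell markers, Cd3d, Cd3e and Cd3g were at 0 by the rule and Trac, Trbc1 and Trbc2 had between 12 and 31 UMIs. Cd8b1 had 523 and stood close to the mean of all T cells, a class that was not split by coreceptor. The 5 NK cell markers summed to 3.93 in the Csf1rfl/fl tumor of run 1 and to 0.262, 0.336 and 1.02 in the other tumors, and 323 of the 397 Gzma UMIs of the first lay in 1 cell. The 7 B and plasma cell markers summed to 0.0818, 0.131 and 0.201 in the first 3 tumors and to 1.04 in the Lyve1CreCsf1rfl/fl tumor of run 2. The 24 Cd79a UMIs of pDCs all lay in that tumor, and it had the highest sum of these markers in each of the other dendritic classes as well. The 8 tumor and stromal markers summed to a mean of 1.83 in pDCs, 1.72 in Cd209a cells and 1.04 in all other kept cells. Of them, Cdh1, which encodes E-cadherin, had 367 UMIs of the 417 in pDCs, in 46.9% of the cells, while Krt8, Krt18 and the collagens had 1 UMI or none each.

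The 20 genes with the highest ratio of the pDC level to that of all other kept cells, among genes with at least 100 UMIs in pDCs and seen in at least 10% of them, are given here. Siglech, Cox6a2 and Ccr9 are among them, and the rule chose cells by these genes, so their ratios describe and do not test. The ratio was 245.9 for Pgam2 (143 to 702 over the 4 tumors), the muscle form of phosphoglycerate mutase, and 223.1 for Dntt, which encodes terminal transferase of early lymphocytes. It was 210.8 for Sh3bgr, 200.4 for Siglech, 182.6 for Gm21762, 178.5 for Cox6a2, 173.1 for Ccr9 and 172.7 for Klk1. Klk1b27, a close relative of Klk1 in the same kallikrein cluster, followed with 161.7, and reads may be split between such copies. The list went on with Foxr1 (150.7), Chdh (134.8), Ly6d (126.0), Ptprf (121.1), 1810065E05Rik (115.2), Ccdc162 (107.0), Smim5 (106.0), Paqr5 (100.3), Cd300c (98.9), Iglc3 (95.1) and Atp2a1 (92.7).

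Cox6a2, Pgam2, Sh3bgr and Atp2a1 are known from striated muscle, and the widely expressed relatives of Cox6a2, Pgam2 and Atp2a1 were not above the other dendritic classes. Pgam2 stood at 1.66 and 1.10 UMIs per 10000 in pDCs of Csf1rfl/fl and at 2.35 and 2.11 in Lyve1CreCsf1rfl/fl, and in 31.4% of the cells. Pgam1, the common isoform, had a mean of 0.826 ± 0.0987 (SD, n = 4 tumors) in pDCs, lower than the 1.87 of Cd209a cells. Atp2a1, the fast muscle calcium pump, stood at 1.36 and 1.28 in Csf1rfl/fl and at 1.61 and 1.24 in Lyve1CreCsf1rfl/fl. Atp2a2, the common calcium pump, had 0.687 ± 0.109 (SD, n = 4 tumors) against 0.805 in Xcr1 or Clec9a cells. Among the 14 cytochrome c oxidase genes of the list, 2 were above and 2 below every other dendritic class in every tumor. Over all genes compared 15.6% were above and 3.95% below, so the count above was near that share. Cox6a2, which the rule used, was 1 of the 2 above, with a mean of 20.6 ± 3.47. Cox6a1, its common counterpart, had 2.64 ± 0.372, against 3.65 in Xcr1 or Clec9a cells (SD, n = 4 tumors). The other gene above was Cox4i1, and the 2 below were Cox7c and Cox5b.

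Of the 16 surface and effector genes on the pDC list, 15 were above each other dendritic class in every tumor. Over all genes compared the share was 15.6%. The median log2 ratio of the list was 5.52 to Xcr1 or Clec9a cells, 6.18 to Ccr7 Fscn1 cells and 4.62 to Cd209a cells. Over all genes compared these medians were 0.25, 0.36 and 0.11. The list held the genes of the rule, so its counts describe and do not test. Ly6c2, a surface protein of monocytes and pDCs, stood at 33.2 and 35.2 in Csf1rfl/fl and 33.3 and 36.5 in Lyve1CreCsf1rfl/fl, 6.01-fold above Cd209a cells. Bst2, the tetherin that the antibody PDCA-1 binds, stood at 35.8 and 27.7 in Csf1rfl/fl and at 34.6 and 28.4 in Lyve1CreCsf1rfl/fl, 4.29-fold above Cd209a cells. Lair1, an inhibitory collagen receptor, had a mean of 7.05 ± 0.561, 24.5-fold above the highest other class, and Ptprs, an inhibitory receptor-type phosphatase, had 3.07 ± 0.308, 7.61-fold above (SD, n = 4 tumors). Cd209d was the member that did not exceed every class, with up to 1.09 in pDCs and a mean of 1.97 in Cd209a cells.

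Of the 10 transcription factors on the list, 8 were above every other dendritic class in every tumor, beside 15.6% over all genes compared. Irf8 stood at 23.6 and 29.7 in Csf1rfl/fl and at 24.7 and 28.1 in Lyve1CreCsf1rfl/fl, against a mean of 14.2 in Xcr1 or Clec9a cells. Bcl11a had 6.75 ± 1.40 in pDCs and Runx2 5.12 ± 0.504, 5.203-fold and 12.1-fold above the highest other class (SD, n = 4 tumors). Spib, an ETS factor, had 2.80 ± 0.388 against 0.563 in Ccr7 Fscn1 cells (SD, n = 4 tumors). The promoter window of Spib held no CAGGTG or CAGCTG. Cbfa2t3, a corepressor of the ETO family, was the clearest exception, with at most 2.45 in the pDCs of a tumor and 3.49 in Ccr7 Fscn1 cells. Id2, the inhibitor of E proteins that conventional dendritic cells need, stood at 1.51 and 1.05 in Csf1rfl/fl and at 0.369 and 1.07 in Lyve1CreCsf1rfl/fl. It was 9.02-fold higher in Xcr1 or Clec9a cells, while Cd209a cells had a mean of 1.77 against 0.999 in pDCs.

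Genes associated with the lymphoid lineage were high in pDCs. Of 18 members, 14 had enough UMIs to compare. Of these, 13 were above every other dendritic class in every tumor, beside 15.6% over all genes compared. Ighm, the immunoglobulin mu constant gene, was found in 97.7% of pDCs and had 9.17 ± 0.741 UMIs per 10000, 10.9-fold above Cd209a cells (SD, n = 4 tumors). Among the light chain constant genes, Iglc3 was found in 78.5% of pDCs, Igkc in 55.02%, Iglc2 in 20.5% and Iglc1 in 8.16%, and 94 of the 98 cells with Iglc2 UMIs also had Iglc3 UMIs. These lambda genes are near copies of each other, so reads may be assigned to the wrong member. Dntt stood at 1.06 and 1.02 in Csf1rfl/fl and at 1.11 and 0.971 in Lyve1CreCsf1rfl/fl, and Rag1, Rag2 and Tnfrsf17, which encodes the plasma cell receptor BCMA, had 0 UMIs.

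Coreceptor genes of T cells were also present in pDCs. T cells here are all other kept cells with at least 2 UMIs of Cd3d, Cd3e and Cd3g, under the same cap on S100a8 and S100a9. They were not split by coreceptor, so their means are not the levels of CD4 or of CD8 T cells. Cd4 stood at 2.23 and 1.47 in Csf1rfl/fl and at 2.18 and 2.04 in Lyve1CreCsf1rfl/fl. This was above the mean of 0.662 over all T cells and 171-fold above the highest other dendritic class. Cd8b1 had 2.35 ± 0.450, close to the 2.26 of T cells, and Cd8a had 1.06 ± 0.143 against 2.17 in T cells (SD, n = 4 tumors). At least 1 UMI of Cd4, Cd8a or Cd8b1 was found in 354 pDCs, of Cd4 and Cd8a together in 60, and of Cd8a and Cd8b1 together in 52. The rule allowed no Cd3 UMI, which left out 68, 17, 7 and 19 cells that met its terms for Siglech, Ccr9 and Cox6a2.

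Shares of cells with a UMI depend on depth, so each cell was thinned to 2000 UMIs, which left out 1 pDC each of the run 1 tumors. At that depth Ly6d was found in 87.0%, 76.1%, 84.1% and 86.3% of pDCs and in at most 2.71% of T cells of a tumor. Klk1 was found in 58.7%, 53.5%, 60.3% and 63.0% of pDCs, and in at most 1.11% of T cells. Without thinning the Klk1 shares were 68.5%, 73.2%, 67.2% and 75.3%, with median depths from 3970 to 5048 UMIs in pDCs and from 3940.5 to 5772 in T cells. Cd4 was found in 33.1%, 21.1%, 31.8% and 35.6% of thinned pDCs and in 8.31% to 15.2% of all T cells, not split by coreceptor. The exact binomial intervals of the pDC shares overlapped between all 4 tumors. These intervals cover counting error only. Members also varied among themselves. The level of Klk1 in single cells ran from 0 at the 10th percentile through a median of 5.89 to 31.3 UMIs per 10000 at the 90th percentile. Ly6d ran from 1.93 through 20.4 to 62.6 and Siglech from 7.80 through 20.2 to 37.2 at the same percentiles.

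**Figure D2:**
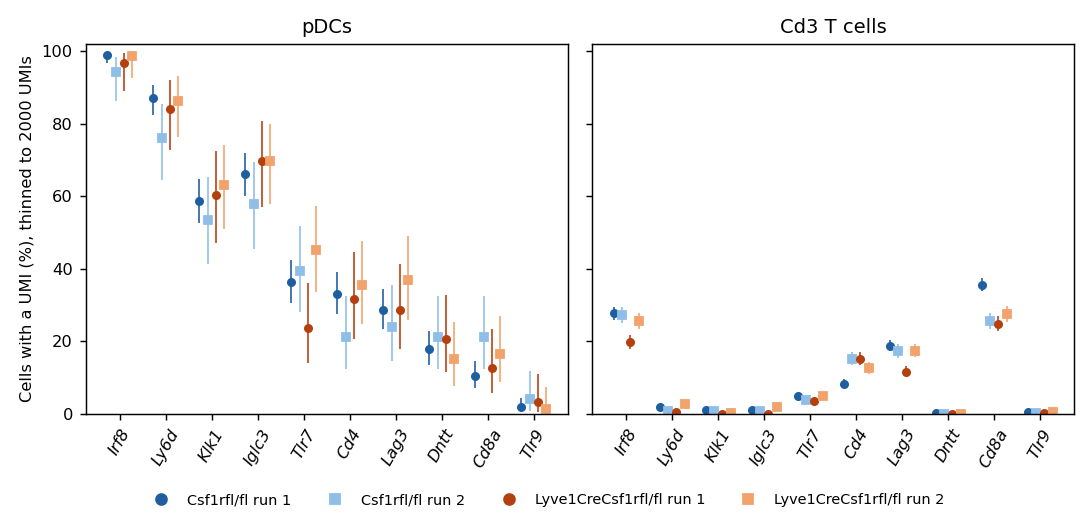
Percentage of pDCs (left) and of T cells with Cd3 UMIs (right) that held a UMI of 10 genes after thinning to 2000 UMIs, with 1 point per tumor and 95% exact binomial intervals. Klk1 was found in 53.5% to 63.0% of pDCs and in at most 1.11% of T cells, while Cd8a was found more often in T cells.

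Genes that sense nucleic acids were present, and interferon transcripts were nearly absent. Of the 17 sensing genes, 12 were above every other dendritic class in every tumor and 1, Irf5, was below. Over all genes compared 15.6% were above and 3.95% below. Tlr7 stood at 2.06 and 2.25 in Csf1rfl/fl and at 1.98 and 2.40 in Lyve1CreCsf1rfl/fl, 28.4-fold above Ccr7 Fscn1 cells. Pld4, an exonuclease of endosomes, had 8.36 ± 0.514 and Unc93b1, the chaperone that carries these receptors to endosomes, 5.17 ± 0.365 (SD, n = 4 tumors). Tlr9 had 25 UMIs in all pDCs and Tlr12 had 117. Irf7, the factor that drives interferon genes, stood at 7.84 and 8.88 in Csf1rfl/fl and at 6.47 and 7.33 in Lyve1CreCsf1rfl/fl, and 1.12-fold above Cd209a cells. Of the 20 type I and III interferon genes in the table, 18 had 0 UMIs in the 2314577 UMIs of all pDCs, so that a count of 0 for a gene allows at most 3 UMIs in that total. The 6 interferon UMIs, 5 of Ifnl3 and 1 of Ifna11, lay in 1 cell of the Lyve1CreCsf1rfl/fl tumor of run 2. That cell had 13 Siglech, 6 Ccr9 and 0 Cox6a2 UMIs, 114 Ccl4 and 33 Isg15 UMIs among 12926, and was called a doublet. All kept cells together held 164 interferon UMIs.

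Interferon-stimulated genes did not stand out as a group. Of the 32 measured, 6 were above and 1 below every other dendritic class in every tumor, beside 15.6% and 3.95% over all genes compared. Their median log2 ratio was 0.74 to Xcr1 or Clec9a cells, 0.23 to Ccr7 Fscn1 cells and -0.71 to Cd209a cells. Over all genes compared these medians were 0.25, 0.36 and 0.11. The 6 above were Bst2, Ly6a, Ly6e, Trim30a, Ifi44 and Stat2, and Zbp1 was below. Ly6a, which encodes Sca-1, had 20.1 ± 1.31 and Ly6e 16.8 ± 2.80, 1.91-fold and 1.38-fold above Cd209a cells (SD, n = 4 tumors). Isg15 stood at 4.20 and 8.46 in Csf1rfl/fl and at 5.43 and 5.97 in Lyve1CreCsf1rfl/fl, below the mean of 13.4 in Ccr7 Fscn1 cells. Rsad2, the antiviral enzyme viperin, ranged from 0.772 to 2.88 between tumors and had a mean of 20.1 in neutrophils.

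Of the 14 genes of antigen presentation and costimulation, 7 were below and 1 was above every other dendritic class in every tumor. Over all genes compared 3.95% were below and 15.6% above. H2-Ab1 is 1 of the 7 and defined the Cd209a class, so high MHC class II in that class was set by its definition. H2-Aa, an MHC class II chain, stood at 7.999 and 9.03 in Csf1rfl/fl and at 5.74 and 11.5 in Lyve1CreCsf1rfl/fl, against means of 45.0 in Xcr1 or Clec9a cells, 34.0 in Ccr7 Fscn1 cells and 11.8 in all other kept cells. Cd74, the invariant chain, had 25.3 ± 3.03 (SD, n = 4 tumors), against 99.3 in Xcr1 or Clec9a cells, 52.7 in Ccr7 Fscn1 cells and 26.5 in all other kept cells. Ciita, the class II transactivator, had 53 UMIs and Cd86 and Cd80, which costimulate T cells, had 65 and 24. H2-Oa, part of the nonclassical molecule that limits peptide loading, was the gene above, with 0.894 ± 0.108 against 0.482 in Cd209a cells (SD, n = 4 tumors). Among the 15 conventional dendritic cell genes, 4 were below and none above, beside 3.95% and 15.6% over all genes compared. Cst3, which encodes cystatin C, had 19.5 and 27.8 in Csf1rfl/fl and 16.3 and 12.1 in Lyve1CreCsf1rfl/fl, 14.5-fold less than the 274 of Xcr1 or Clec9a cells.

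**Figure D3:**
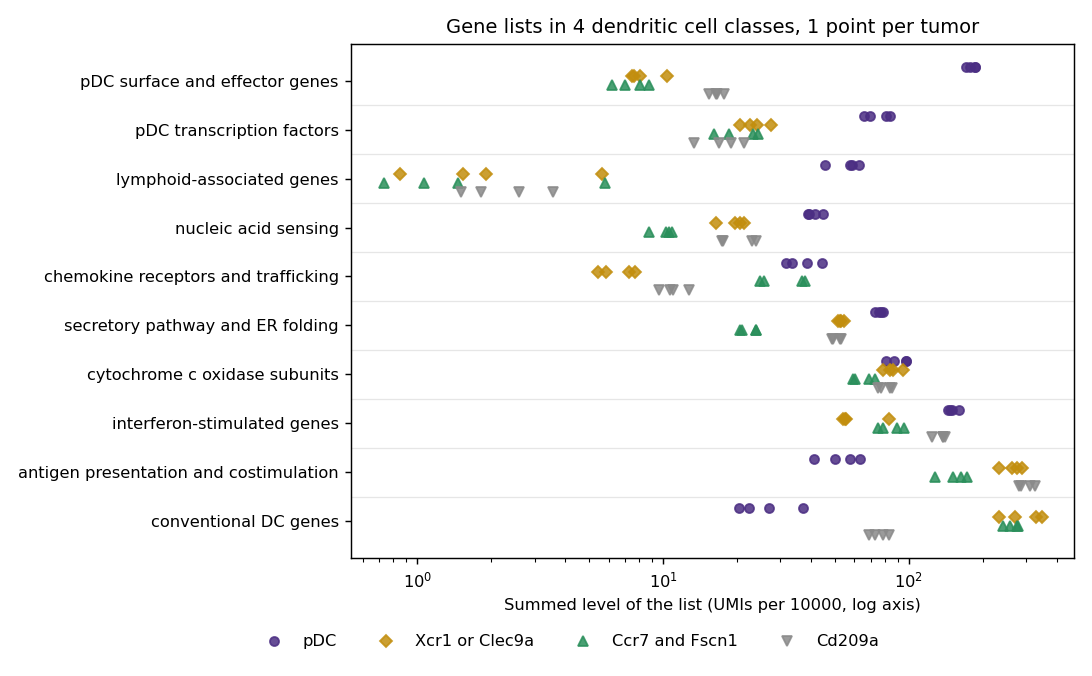
Summed level of 10 gene lists (UMIs per 10000, log axis) in pDCs and 3 other dendritic cell classes, 1 point per tumor. The pDC points lie to the right for the lymphoid-associated genes (45.6 to 62.5) and to the left for the genes of antigen presentation and costimulation (41.0 to 63.3).

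Secretory genes were mostly high. Of 21, 12 were above and 0 below every other dendritic class in every tumor, beside 15.6% and 3.95% over all genes compared. Sec61b, of the translocon, had 14.8 ± 1.34, 1.35-fold above Cd209a cells, and Xbp1, a factor of secretory cells, had 4.77 ± 1.18, 2.71-fold above (SD, n = 4 tumors). Mzb1, a chaperone of the endoplasmic reticulum known from plasma cells and marginal zone B cells, stood at 3.05 and 1.81 in Csf1rfl/fl and at 2.05 and 1.80 in Lyve1CreCsf1rfl/fl, 59.9-fold above Cd209a cells. The 21 genes summed to between 72.8 and 78.8 in pDCs and to between 20.5 and 23.9 in Ccr7 Fscn1 cells. The other classes lay closer to pDCs, with 51.3 to 54.3 in Xcr1 or Clec9a cells and 48.9 to 53.0 in Cd209a cells.

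Among 14 genes of chemokine receptors and trafficking, 5 were above every other dendritic class in every tumor, beside 15.6% over all genes compared. The 5 included Ccr9, which the rule used, Selplg, a selectin ligand, Cxcr3 and Cmklr1, the chemerin receptor. Selplg stood at 6.58 and 9.16 in Csf1rfl/fl and at 7.01 and 6.77 in Lyve1CreCsf1rfl/fl, 1.37-fold above Ccr7 Fscn1 cells. Ccr2 had 0.784 ± 0.142 and was 3.25-fold higher in Cd209a cells (SD, n = 4 tumors), and Ccr7, which leads mature cells to lymph nodes, had 84 UMIs in 3.56% of pDCs. Of the 23 regulatory and effector genes, 18 had enough UMIs to compare. Of these, Ccl4, Cd47 and Lag3 were above every other dendritic class in every tumor and Cxcl9 was below, beside 15.6% above and 3.95% below over all genes compared. Ccl4, an inflammatory chemokine, stood at 20.6 and 24.8 in Csf1rfl/fl and at 37.5 and 24.0 in Lyve1CreCsf1rfl/fl, with a median of 8.54 and a 90th percentile of 77.9 over single cells. Lag3, an inhibitory receptor that binds MHC class II, stood at 1.62 and 1.89 in Csf1rfl/fl and at 1.24 and 2.19 in Lyve1CreCsf1rfl/fl, 29.1-fold above Cd209a cells and above the 0.858 of T cells. Ido1, Il10, Il6 and Arg1 had between 2 and 5 UMIs each in all pDCs, so neither their presence nor their absence can be told at this depth.

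UMIs of both Mki67 and Top2a were found in 3, 0, 0 and 1 pDCs, or 1.11%, 0%, 0% and 1.37%, and in 8.25% to 11.7% of all kept cells of a tumor. The 20 cell cycle genes summed to 4.94 and 3.61 in pDCs of Csf1rfl/fl and to 3.22 and 13.1 in those of Lyve1CreCsf1rfl/fl. In Ccr7 Fscn1 cells they summed to 5.78, 4.37, 7.16 and 3.90 in the same order. The pDCs were thus lower in 3 tumors and higher in the Lyve1CreCsf1rfl/fl tumor of run 2. Of the 20 genes, 0 were below every other dendritic class in every tumor, beside 3.95% over all genes compared. A count of 0 in 71 and 64 cells allows up to 4.23% and 4.69% of cells with UMIs of both genes, and does not limit the share of cells that express them. Of the 50 Top2a UMIs in the Lyve1CreCsf1rfl/fl tumor of run 2, 49 came from 1 cell with 28158 UMIs that was called a doublet. The 5 genes of transitional dendritic cells summed to between 0.196 and 0.604 UMIs per 10000 in pDCs, with means of 1.71 in Ccr7 Fscn1 cells, 0.555 in Xcr1 or Clec9a cells and 0.464 in Cd209a cells.

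The share of pDCs among kept cells went opposite ways in the runs. It was 3.13% (95% exact binomial interval 2.78% to 3.52%) and 0.912% (0.713% to 1.15%) in Csf1rfl/fl, run 1 first, against 0.882% (0.680% to 1.12%) and 1.53% (1.20% to 1.92%) in the Lyve1CreCsf1rfl/fl tumors. The Csf1rfl/fl tumor of run 1 stood above the other 3, and the Lyve1CreCsf1rfl/fl tumor was lower in run 1 and higher in run 2, with log2 ratios of -1.83 and 0.75. The mean log2 ratio was -0.54 (two-sided exact permutation test over tumors, p = 0.667, n = 2 per genotype, smallest possible p = 0.333). Without the Csf1rfl/fl tumor of run 1 the log2 ratio was 0.35. As a share of the 4 dendritic classes, pDCs were 43.2% and 11.5% in Csf1rfl/fl and 10.4% and 21.4% in Lyve1CreCsf1rfl/fl. The authors removed lymphocyte clusters that came almost entirely from the Lyve1CreCsf1rfl/fl tumor of run 2. With all barcodes counted, the log2 ratio of run 2 was 0.02 and the mean -0.83. This setting added every barcode not kept in any tumor, not only those clusters: 3520 and 5158 in Csf1rfl/fl and 6761 and 9493 in Lyve1CreCsf1rfl/fl. Of the added barcodes that met the rule, 23 of 30, 23 of 31, 36 of 44 and 31 of 41 had a weak hashtag or many mitochondrial UMIs. The limits were under 3 times the other hashtag, or at least 5% mitochondrial UMIs. The part of the removed clusters in the change was not tested.

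**Figure D4:**
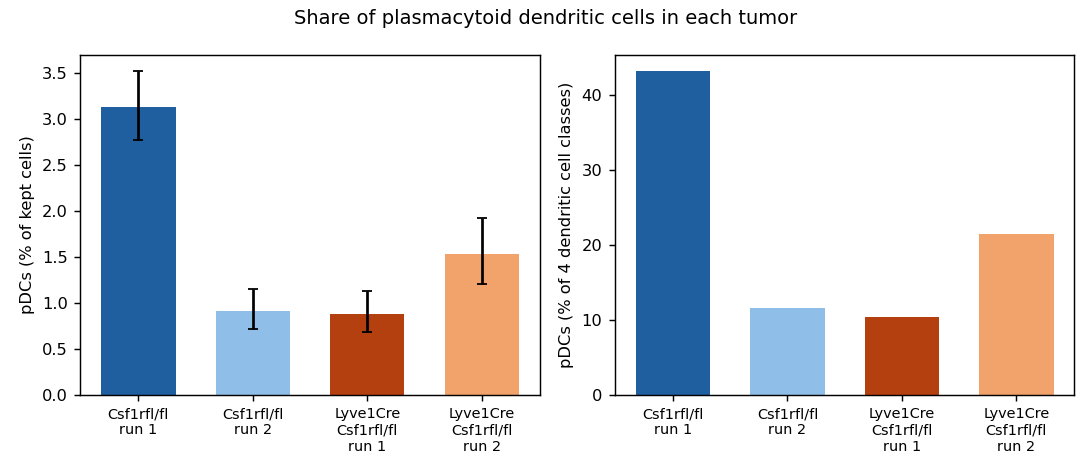
Share of pDCs among kept cells (left, bars with 95% exact binomial intervals) and among 4 dendritic cell classes (right) in each tumor. The bar of the Csf1rfl/fl tumor of run 1 is at 3.13% and the other 3 lie between 0.882% and 1.53%.

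No gene passed the main test between genotypes within pDCs, and the count of calls depended on single tumors and on the filter. UMIs were summed per tumor and 4976 genes were tested by the quasi-likelihood test of edgeR, of which 0 were called higher (0%) and 0 lower (0%) at an adjusted p under 0.05, and 91 had an unadjusted p under 0.05. DESeq2 called 0, with 35 at an unadjusted p under 0.05. In simulated counts, every gene had the same spread between tumors (dispersion 0.0371), and only genes above a minimum level were changed. There, 21% of genes changed by 1 on the log2 scale and 87% of those changed by 2 were recovered. A change of 1 was thus more often missed than found in that setting. Genes that vary more between tumors, or with UMIs concentrated in few cells, were not simulated, so their recovery is not known. The levels of the genotypes did not overlap for 26% of the genes tested, where random orderings of 2 against 2 tumors give a share of 0.333. With the Chromium run as a block, 1 gene was called lower, which is 0.0201% of the genes tested. Without the filter on low counts 22 were called, and leaving out 1 tumor gave 27 calls without the Csf1rfl/fl tumor of run 1, 7 without that of run 2, 34 without the Lyve1CreCsf1rfl/fl tumor of run 1 and 5 without that of run 2.

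The 3 markers that the rule did not use did not pass the test between genotypes. The log2 fold change of Lyve1CreCsf1rfl/fl to Csf1rfl/fl was 0.29 ± 0.28 for Klk1, 0.08 ± 0.25 for Tcf4 and 0.07 ± 0.32 for Ly6d (SE, n = 2 tumors per genotype), each with an adjusted p of 0.999 in edgeR. Of the 16 surface and effector genes, those of the rule included, 11 had a positive and 5 a negative fold change, with a median of 0.04 on the log2 scale, beside 0.01 over all genes tested. None of the 10 transcription factors, 13 sensing genes, 13 lymphoid-associated genes, 21 secretory genes or 10 genes of antigen presentation that were tested was called, and their medians lay between -0.11 and 0.10. Of the 30 interferon-stimulated genes tested, 23 had a negative fold change and 7 a positive one, with a median of -0.12, and 0 were called. Over all 4976 genes tested, 2410 had a negative and 2566 a positive fold change.

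The genes with the smallest p in each direction, among those with 1 sign in runs 1 and 2, were examined cell by cell. Cxcl10, a chemokine induced by interferon, stood at 1.28 and 1.18 UMIs per 10000 in Csf1rfl/fl and at 2.55 and 2.82 in Lyve1CreCsf1rfl/fl (log2 fold change 1.10 ± 0.25, edgeR adjusted p = 0.999). Its UMIs were concentrated. In the Csf1rfl/fl tumors 34 of 156 and 26 of 45 came from 1 cell each, and Scrublet called both cells doublets. In the Lyve1CreCsf1rfl/fl tumors 60 of 76 and 97 of 116 came from 1 cell each, and Scrublet called neither. Removal of Scrublet doublets thus took out the top Cxcl10 cells of Csf1rfl/fl only. Without Scrublet doublets the log2 fold change of Cxcl10 was 4.001 (edgeR adjusted p = 2.08e-05). Without pDCs with a UMI of Ccr7 or Fscn1, which held 101 of the 116, it was 0.48. With the cells that the rule left out for Cd3, S100a8 and S100a9 or C1q UMIs it was 0.14. The cell with 60 had 16529 UMIs, 3 of them Siglech, and the cell with 97 had 12613 UMIs, 4 of them Siglech. Vcan, which encodes versican, had 13 and 16 UMIs in the Lyve1CreCsf1rfl/fl tumors, of which 11 and 12 came from 1 cell each. The 11 lay in the same cell of 16529 UMIs. The 12 lay in the cell of 12926 UMIs that was called a doublet and also held the interferon UMIs. Capn2, the large subunit of a calpain protease, stood at 0.123 and 0.183 in Csf1rfl/fl and at 0.470 and 0.437 in Lyve1CreCsf1rfl/fl, from 7 to 18 UMIs a tumor spread over 7 to 15 cells. The cell of 16529 UMIs held 3 of the 14 Capn2 UMIs of its tumor. Adgre5, the adhesion receptor CD97, stood at 0.515 and 0.524 in Csf1rfl/fl and at 1.11 and 0.898 in Lyve1CreCsf1rfl/fl (log2 fold change 0.91 ± 0.29, edgeR adjusted p = 0.999). Iglc2 stood at 1.63 and 0.419 in Csf1rfl/fl and at 2.42 and 4.13 in Lyve1CreCsf1rfl/fl, and the highest value was in the tumor with the highest sum of B cell markers. The part of that sum in the Iglc2 level was not tested. Its log2 fold change was 1.51 ± 0.47 (edgeR adjusted p = 0.999). It was called without the Csf1rfl/fl tumor of run 1 (3.005) or the Lyve1CreCsf1rfl/fl tumor of run 1 (1.76), and not without the Csf1rfl/fl tumor of run 2 (0.93) or the Lyve1CreCsf1rfl/fl tumor of run 2 (1.11).

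Ccl5, a chemokine of T cells and mature dendritic cells, was the gene called with the run as a block. It stood at 1.85 and 16.7 in Csf1rfl/fl and at 0.235 and 1.14 in Lyve1CreCsf1rfl/fl, with a log2 fold change of -3.62 ± 0.86 (edgeR adjusted p = 0.999, and 9.26e-05 with the run as a block). Of the 637 UMIs in the Csf1rfl/fl tumor of run 2, 629 came from 1 cell, which also had 13 Ccr7 and 13 Fscn1 UMIs and was called a doublet. Without Scrublet doublets the log2 fold change of Ccl5 turned to 0.26, without the Csf1rfl/fl tumor of run 2 it was -1.43, and without the Lyve1CreCsf1rfl/fl tumor of run 2 it was -5.17. Ccl5 was called whichever of the 4 tumors was left out, and without the filter on low counts (edgeR adjusted p = 5.25e-24), as were Tbc1d4 (9.54e-05) and Iglc2 (0.00116) without the filter. Without the 21 pDCs that had a UMI of Ccr7 or Fscn1, a setting chosen after seeing the data, Ccl5 had a log2 fold change of -1.01 and 0 genes were called with or without the block. Tbc1d4, a regulator of glucose transporter traffic, stood at 0.458 and 1.26 in Csf1rfl/fl and at 0.0671 and 0.194 in Lyve1CreCsf1rfl/fl, and 49 of 56 and 42 of 48 UMIs in Csf1rfl/fl lay in those same cells with Ccr7 or Fscn1. It was called without any 1 of the tumors other than the Csf1rfl/fl tumor of run 2, with log2 fold changes from -3.45 to -2.07. Of the 85 Bcl2a1b UMIs in the Csf1rfl/fl tumor of run 2, 61 lay in cells with Ccr7 or Fscn1. Bcl2a1b, which has near-identical copies, went from a log2 fold change of -1.15 ± 0.32 to -0.43 without such cells, and was called without the Csf1rfl/fl tumor of run 1 (-1.51). That of Gadd45g, a stress gene, was -1.86 ± 0.49 (edgeR adjusted p = 0.999, as for Bcl2a1b with all cells). Gpr65, a proton-sensing receptor, was spread over more cells. It stood at 0.982 and 0.969 in Csf1rfl/fl and at 0.436 and 0.510 in Lyve1CreCsf1rfl/fl, in 68, 20, 11 and 14 cells, with at most 12 UMIs in 1 cell (log2 fold change -1.06 ± 0.30, edgeR adjusted p = 0.999).

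**Figure D5:**
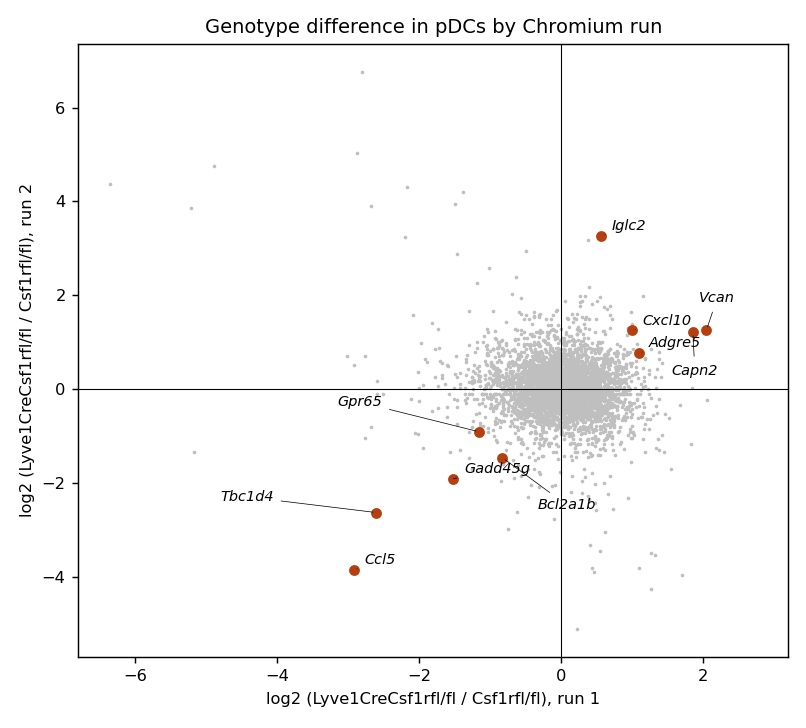
Log2 ratio of Lyve1CreCsf1rfl/fl to Csf1rfl/fl pDCs in run 1 (x axis) and run 2 (y axis) for the 4976 genes tested, grey, with the 10 genes of smallest p and 1 sign in both runs in red. Ccl5 lies at -2.92 and -3.86 and Cxcl10 at 0.99 and 1.25, and no gene passed the main test in edgeR, which had no block and used all 4 tumors.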

How the data were processed

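The authors aligned and counted the reads with Cell Ranger 6.0.1 on mm10 and processed them with Seurat, per the submitters' processing notes. The deposited matrices hold raw UMI counts for 32285 genes. The authors' normalized table holds a score per gene and cell and was used only to name the 28429 kept cells, which the authors had filtered to singlets under 5% mitochondrial reads. Each cell was given to the tumor whose raw hashtag count was higher. The members and gene lists were chosen with earlier results of these data known.

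UMI counts were summed per tumor and tested with the quasi-likelihood test of edgeR 4.0.16 (filterByExpr, TMM, Benjamini-Hochberg adjustment), 2 tumors per genotype. The p-values set a change against the spread between these 4 tumors as edgeR estimates it, with information shared across genes. They thus do not rest on the spread of the single gene alone. The tumors of a genotype also came from different runs, so that spread includes the difference between runs. Named genes were the 20 with the highest ratio to other kept cells, the members of the lists, and the 5 of smallest p in each direction among genes with 1 sign in both runs. Xcl1, Gzma, Top2a, Ccl4, Fscn1, Ccr7, Cd79a, Iglc1, Iglc3, Lyz2, Csf1r and Lyve1 were named or examined cell by cell after their values were seen. Some of them also belong to the lists or to the 20 genes. Replicate numbers mark the Chromium run, which pairs tumors of both genotypes. Deviations of tumors of the same run correlated at r = 0.095 over 4976 genes and 0.413 over 569 genes of high level. The test was tested on simulated data, where 200 genes changed by 1 or by 2 on the log2 scale gave 2 and 3 false calls. Alternatives were DESeq2 1.42.0, the run as a block, no filter, other hashtag, Siglech and exclusion rules, Scrublet doublets removed, and each tumor left out. Some genes of the lists are not reported here.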

Additional observations from a re-analysis of the deposited data

Results flagged for a closer look

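Barcodes that the authors had not kept also met the rule for pDCs. The Csf1rfl/fl tumors had 30 in run 1 and 31 in run 2, and the Lyve1CreCsf1rfl/fl tumors had 44 and 41, or 0.852%, 0.601%, 0.651% and 0.432% of the barcodes not kept. Among kept cells the shares were 3.13%, 0.912%, 0.882% and 1.53%. These counts lay above what a count of 0 allows, which any count over 3 does, and they were found by the rule itself. Of these barcodes, 23, 23, 36 and 31 had a hashtag count under 3 times that of the other hashtag or at least 5% mitochondrial UMIs.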

How the results depend on the processing

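With 2 tumors per genotype the exact test cannot go below p = 0.333, and counts rest on 64 to 270 cells. The genes called numbered 0 in the main test, 1 with the run as a replicate block and 22 without a filter on low counts (10 higher, 12 lower). Without Scrublet doublets they numbered 2, Cxcl10 (log2 fold change 4.001, edgeR adjusted p = 2.08e-05) and Lyz2, and 60 of 76 Cxcl10 and 157 of 210 Lyz2 UMIs of the Lyve1CreCsf1rfl/fl tumor of run 1 lay in a cell of 16529 UMIs. The cells with the most Cxcl10 UMIs were called doublets in both Csf1rfl/fl tumors and in neither Lyve1CreCsf1rfl/fl tumor. Ccl5 had a log2 fold change of 0.26 without Scrublet doublets. Leaving out each tumor gave 5 to 34 calls, where the lone tumor of a genotype is assumed to vary like the others. The cause was not tested. The log2 ratio of the share ranged from -1.43 to 0.35 when each tumor was left out, with 0.35 without the Csf1rfl/fl tumor of run 1, and the mean of the within-run ratios (replicate block) was -0.54. DESeq2 and the other settings called 0 genes. The 10 genes of the next count are the 5 with the smallest p in each direction among those with 1 sign in both runs. None passed the main test, so none could fall out of the calls. Vcan, Tbc1d4, Gadd45g and Bcl2a1b were not among the genes tested without Scrublet doublets. Tbc1d4 was also not tested without pDCs with a UMI of Ccr7 or Fscn1. Such missing fits are not counted. Of 134 alternatives for the 10 genes with the smallest p, 118 kept their direction and side of the threshold, 15 passed it and 1 reversed. The 118 include the centered log ratio of the hashtags. It gave the same values as the main test for each of the 10 genes, so it was no separate check.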

Other observations

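Several transcripts of cytotoxic or cycling cells in the pDC sums came from single cells. Of 397 Gzma UMIs in the Csf1rfl/fl tumor of run 1, 323 lay in 1 cell, and of 278 Xcl1 UMIs in the Lyve1CreCsf1rfl/fl tumor of run 2, 266 lay in 1 cell. Both cells were called doublets by Scrublet, and both genes were named after their values were seen.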
